A study of Mus musculus with 16 samples.

Results

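Amino acids enter and leave animal cells through carrier proteins of the plasma membrane that belong to several families of solute carriers. Some work alone, such as the cationic carriers that bring in arginine and lysine or the sodium-coupled carriers of glutamine, alanine and glycine. Others are light chains that reach the cell surface only when bound to the heavy chain CD98, the product of *Slc3a2*. Many of these genes are known targets of ATF4, a transcription factor made in greater amounts when the integrated stress response slows general translation.

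The 10 genes described here were taken from the deposited tables by symbol and Ensembl identifier, out of 53354 genes with TPM values (transcript abundance scaled to transcript length and library size). They were the heavy chain gene *Slc3a2*, its light chain genes *Slc7a5* and *Slc7a11*, the cationic carrier genes *Slc7a1* and *Slc7a3*, the neutral amino acid carrier genes *Slc1a4*, *Slc1a5*, *Slc38a1* and *Slc38a2*, and the glycine carrier gene *Slc6a9*. All samples were mIMCD3 cells, 1 line derived from the inner medulla of an SV40 T antigen transgenic mouse and used as a model of the collecting duct. The cells had grown on permeable filters for 10 days before they received either the vehicle DMSO or 2 µg/mL doxycycline (DOX), a tetracycline antibiotic, for 3 or 6 days. The 4 groups (DMSO and DOX at 3 days, DMSO and DOX at 6 days) had 4 libraries each from polyadenylated RNA, and the labels number the replicates without saying whether they were separate cultures, so the p-values measure only the spread between these samples. DOX is used in many cell models as an inducer of transgenes, and here cells with no stated inducible transgene received it.

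Total counts per library ran from 16933343 to 23960860, and replicates of a group correlated at 0.981 to 0.992 (Pearson's r across genes of log2 CPM, counts scaled to library size). Of 10 collecting duct markers, 7 were too low to be tested, among them the water channel gene *Aqp2* with at most 9 counts in a library, so the label rests on origin more than on these markers. The 3 that were tested, *Scnn1a*, *Hsd11b2* and *Gata3*, were lower with DOX at 6 days, and 2 of them at 3 days, by edgeR (median log2 fold change -1.44 and -0.99). All 7 epithelial markers were expressed, and their summed level was 2164 to 2628 TPM in DMSO and 1597 to 1859.5 TPM in DOX, with 2 of the 7 called as lower at 3 days and 4 at 6 days. Of 3 tested mesenchymal markers 1, *Fn1*, was higher at 6 days (0.48, adjusted p = 0.0158). Among all tested genes 7.22% were called as lower at 3 days and 11.6% at 6 days. At 6 days 10.0% were called as higher. The leukocyte genes *Ptprc* and *Adgre1* had at most 22 counts and 1 count, while the lysosomal marker *Cd68*, at 21.6 TPM on average in DMSO, was lower with DOX, with log2 fold changes of -0.96 and -0.90 at 3 and 6 days (edgeR adjusted p = 1.39e-06 and 9.48e-07). Summed over 6 markers of other tubule segments, 7 libraries had 12.5 to 28.4 TPM and the other 9 had 3.86 to 7.41 TPM. The 7 were replicates 1 and 3 of DMSO at 3 days, replicates 2, 3 and 4 of DMSO at 6 days, and replicates 1 and 2 of DOX at 6 days. Without those 7 libraries, an omission chosen after the data were seen, 5 members were called at 3 days and 7 at 6 days, where 5 and 8 were called with all libraries. That fit has a single DMSO library at 6 days, which is assumed to vary like the libraries of the other groups. The part of the collecting duct, epithelial, mesenchymal and leukocyte markers in the results was not tested.

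For 2 of the 6 members with a promoter sequence in RefSeq (GRCm38.p6), the window from 250 bases before to 50 bases after a start site held the C/EBP-ATF response element core TGATGNAA, to which ATF4 is known to bind with a C/EBP partner. Both strands were searched. The 6 members had 9 windows, of which 2 held a match. Counted per window in the same way, of 32851 promoter windows of the same length 3.97% held at least 1 match and 0.07% held 2 or more. *Slc7a11* had 2 matches, 1 on each strand, 66 to 59 and 47 to 40 bases before its start. *Slc1a4* had 1 match that spans its start, from 4 bases before it. *Slc3a2*, *Slc7a1*, *Slc38a2* and *Slc6a9* had no match in their 7 windows, and *Slc7a3*, *Slc7a5*, *Slc1a5* and *Slc38a1* had no window to search. A match describes letters and not a bound site, and sequence outside these windows was not searched. *Slc7a11* and *Slc1a4* were among the members higher with DOX at both times, as were *Slc3a2* and *Slc6a9* without a match in their windows. A link between matches and fold changes was not tested. The stretches around the matches are shown for both genes that had one, with the core or its reverse complement in capitals. They lie at chr3:50443623-50443709 and chr11:20332699-20332728, both on the minus strand.
Slc7a11: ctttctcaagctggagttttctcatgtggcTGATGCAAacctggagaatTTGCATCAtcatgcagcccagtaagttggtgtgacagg
Slc1a4: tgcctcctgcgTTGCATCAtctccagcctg

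In DMSO-treated cells the levels of the 10 genes, compared per transcript length as TPM, covered a wide range. *Slc3a2* (ENSMUSG00000010095, chr19:8706882-8723369) was highest at 257 ± 31.4 TPM (SD, n = 8) and ranked 465 among all genes. *Slc38a2* (ENSMUSG00000022462, chr15:96687392-96699730), a sodium-coupled carrier of small neutral amino acids, followed at 69.6 ± 8.34 TPM. The ranges of *Slc3a2* and *Slc38a2* over the 8 libraries did not overlap each other or those of lower genes.

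*Slc7a5* (ENSMUSG00000040010, chr8:121881150-121907694), the exchanger of leucine and other large neutral amino acids, had 37.1 ± 5.72 TPM, and *Slc7a1* (ENSMUSG00000041313, chr5:148327410-148399904), the widespread carrier of arginine and lysine, had 32.3 ± 3.81 TPM. *Slc38a1* (ENSMUSG00000023169, chr15:96571418-96642913), a sodium-coupled carrier of glutamine, had 17.8 ± 1.46 TPM. Neighbours in this order were close, since *Slc7a5* and *Slc7a1* overlapped in range, as did *Slc38a1* and the next gene, *Slc1a5*.

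*Slc1a5* (ENSMUSG00000001918, chr7:16781340-16798274), which exchanges glutamine for other neutral amino acids, had 15.2 ± 2.54 TPM. *Slc6a9* (ENSMUSG00000028542, chr4:117834506-117875198), a sodium- and chloride-coupled glycine carrier, had 10.5 ± 1.82 TPM, and *Slc1a4* (ENSMUSG00000020142, chr11:20302180-20332713), which carries alanine, serine and cysteine, had 7.23 ± 0.994 TPM. *Slc1a5* and *Slc6a9* overlapped in range, as did *Slc6a9* and *Slc1a4*, although within each of the 8 libraries *Slc1a5* was above *Slc6a9* and *Slc6a9* above *Slc1a4*.

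At the low end, *Slc7a11* (ENSMUSG00000027737, chr3:49892526-50443614), which trades intracellular glutamate for extracellular cystine, had 1.92 ± 0.353 TPM. *Slc7a3* (ENSMUSG00000031297, chrX:101079210-101086020), a cationic carrier known mainly from brain, had 0.288 ± 0.129 TPM from 7 to 18 counts per library over all 16 libraries. With at most 0.943 CPM it did not reach 1 CPM in any library and was not tested, and its values in DMSO and DOX overlapped at both times. The other 9 genes exceeded 1 CPM in all 16 libraries. In DOX at 6 days the order was the same except that *Slc1a5* (37.3 ± 3.77 TPM) and *Slc6a9* (27.6 ± 2.43 TPM) stood above *Slc38a1* (24.2 ± 2.96 TPM, SD, n = 4), and the ranges of *Slc6a9* and *Slc38a1* overlapped.

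**Figure D1:**
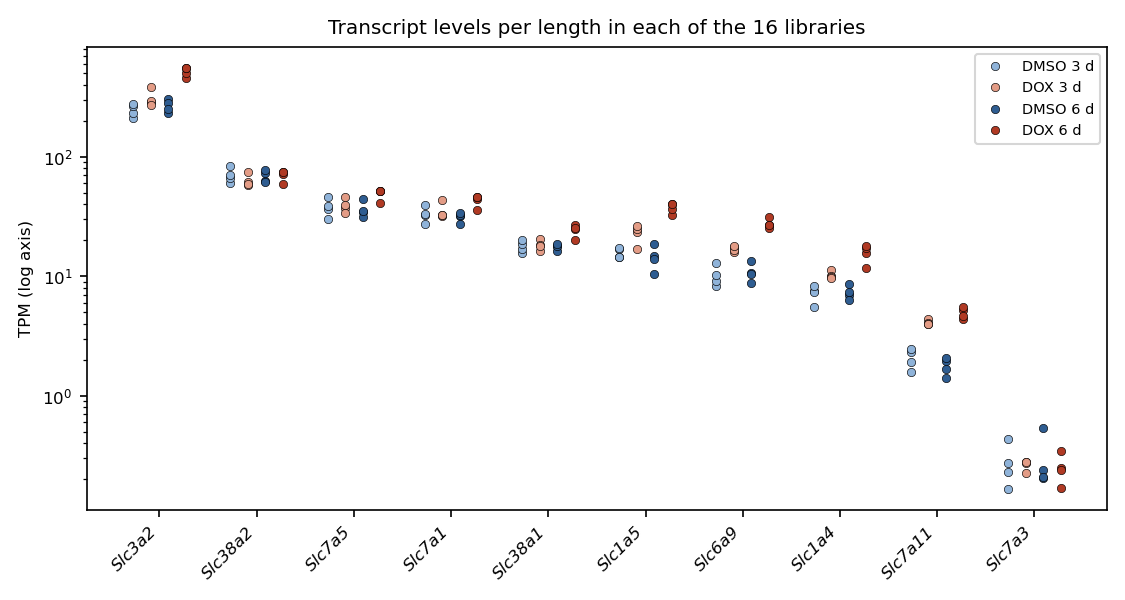
TPM (log axis) of the 10 transporter genes in each of the 16 libraries, ordered by mean level in DMSO, with 1 column of 4 points per group. *Slc3a2* lies highest, at 257 TPM on average in DMSO, and *Slc7a3* lowest, at 0.288 TPM.

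The question of the comparison at 3 days was which transcripts differed between DOX- and DMSO-treated cells after the shorter exposure. Of the 9 tested members, 5 were higher with DOX, namely *Slc7a11*, *Slc6a9*, *Slc1a5*, *Slc1a4* and *Slc3a2*, 0 were lower and 4 were not called. A gene was called when its adjusted p in edgeR's test for a change of more than 1.2-fold was under 0.05. Among all 13234 tested genes 12.5% were called at 3 days and 5.30% were called as higher. Fold changes compare counts scaled by the TMM method, and in bulk RNA a change in the number of cells of a kind cannot be told apart from a change of RNA per cell. The median log2 fold change was 0.57 over the 9 members and 0.00306 over all tested genes.

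At 6 days 8 of the 9 tested members were higher with DOX, 0 were lower, and *Slc38a2* was not called. Of all tested genes 21.6% were called at 6 days and 10.0% were called as higher. The members' median log2 fold change was 1.03, against -0.000641 over all tested genes. In all 8 called members each of the 4 DOX libraries had more CPM than each of the 4 DMSO libraries, an arrangement that 22.1% of all tested genes showed at 6 days. At 3 days 7 of the 9 members were arranged in that way, against 18.8% of all tested genes. On the TPM scale the members so arranged were 3 at 3 days (*Slc7a11*, *Slc6a9* and *Slc1a4*) and 7 at 6 days, where *Slc7a5* and *Slc38a2* overlapped, against 5.99% and 11.9% of 13180 genes.

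**Figure D2:**
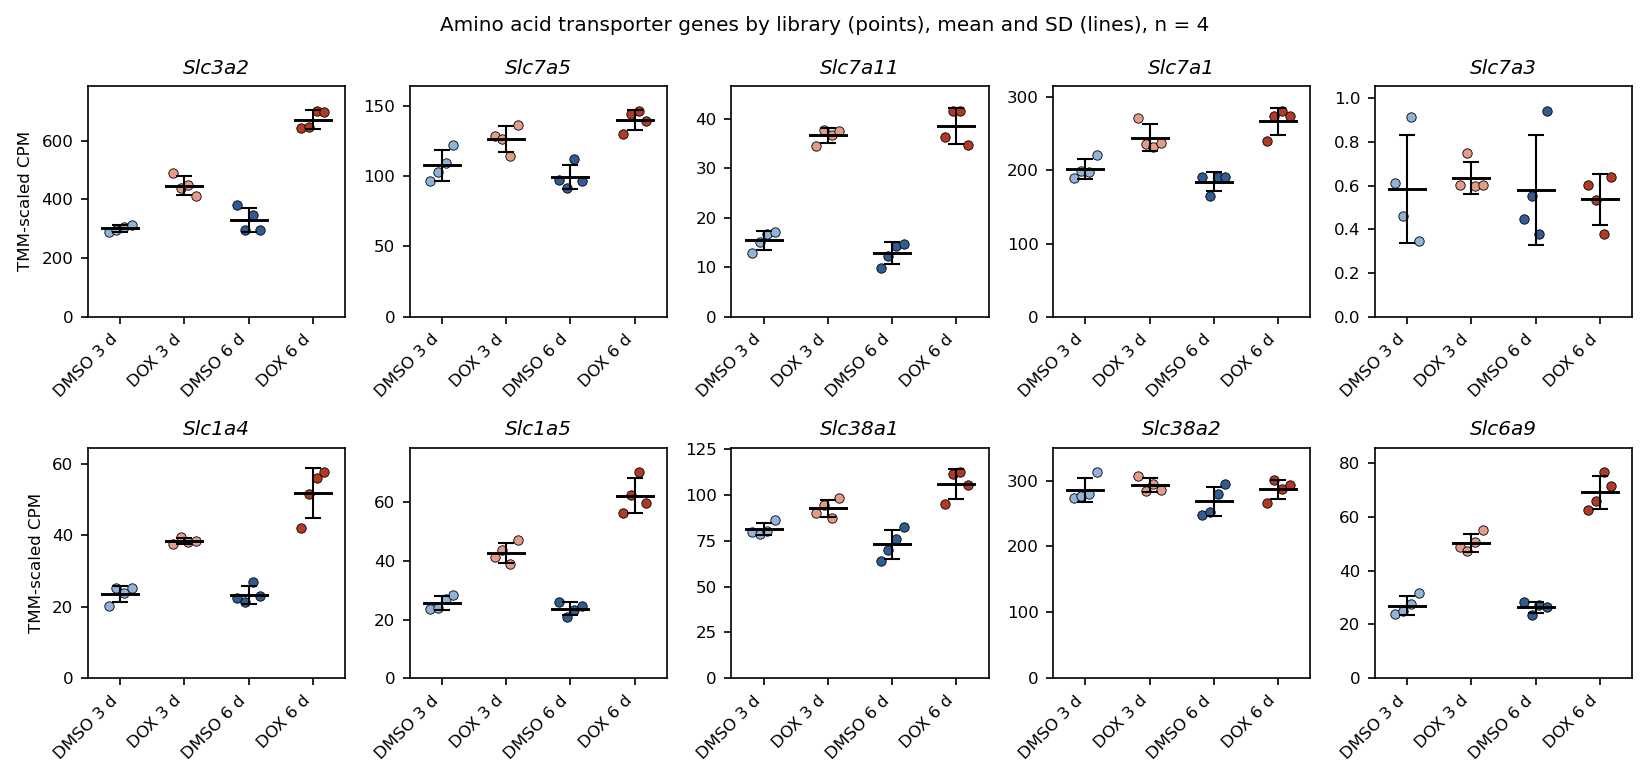
TMM-scaled CPM of the 10 transporter genes in each library (points, replicates 1 to 4 from left to right), with the mean and SD of 4 libraries as lines. At 6 days the DOX libraries stand above the DMSO libraries in every panel except those of *Slc38a2* and *Slc7a3*.

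Among the heavy chain and its partners, *Slc3a2* had 287, 296, 307 and 313 CPM in DMSO and 489, 439, 448 and 411 CPM in DOX at 3 days. At 6 days it had 380.5, 296, 348 and 294 CPM in DMSO and 642, 646, 702 and 697 CPM in DOX. The DOX libraries thus lay above the DMSO libraries at both times, most widely at 6 days. By edgeR the 3-day log2 fold change was 0.57 (SE 0.0764, adjusted p = 0.00117), and the 6-day value was 1.03 (SE 0.0767, adjusted p = 1.56e-08).

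The cystine carrier gene *Slc7a11* had 12.9, 15.2, 16.7 and 17.1 CPM in DMSO and 34.6, 37.7, 36.7 and 37.6 CPM in DOX at 3 days. At 6 days its libraries held 9.96, 12.3, 14.3 and 14.8 CPM in DMSO and 36.2, 41.6, 41.6 and 34.7 CPM in DOX. Even the lowest DOX library was well above the highest DMSO library. The edgeR fit gave log2 fold changes of 1.24 (SE 0.10, adjusted p = 7.39e-08) and 1.59 (SE 0.102, adjusted p = 4.26e-10), the highest of the members at both times, or 2.36-fold and 3.00-fold. The genes that the annotation places inside *Slc7a11*, 5 noncoding genes or pseudogenes, share no exon with it. Its promoter is the one with 2 response element cores shown above, and a link to the fold change was not tested.

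*Slc7a5* differed less. At 3 days its groups overlapped, with 96.2, 103, 109 and 122 CPM in DMSO and 128, 127, 114 and 136 CPM in DOX, and the log2 difference of 0.23 (SE 0.0738, adjusted p = 0.871) did not pass the 1.2-fold test. At 6 days it had 97.5, 91.8, 112 and 96.6 CPM in DMSO and 130.1, 144, 146 and 139 CPM in DOX, with no overlap. The change was called at 0.49 on the log2 scale (SE 0.0738, adjusted p = 0.00377). That call was lost when the 7 libraries with more tubule marker transcripts were left out, which leaves a single DMSO library at 6 days (log2 fold change 0.55, adjusted p = 0.0557).

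The 6 light chain genes that CD98 is known to carry, *Slc7a5*, *Slc7a6*, *Slc7a7*, *Slc7a8*, *Slc7a10* and *Slc7a11*, were also summed as TPM in each library and set beside *Slc3a2*. In DMSO the ratio of heavy chain to summed light chain TPM was 4.80, 4.58, 4.73 and 4.16 at 3 days and 6.04, 4.79, 4.61 and 4.72 at 6 days. In DOX it was 5.86, 5.27, 5.76 and 4.94 at 3 days and 7.79, 6.97, 7.65 and 7.71 at 6 days. The DOX libraries had higher ratios than the DMSO libraries of the same time without overlap, though replicate 1 of DMSO at 6 days exceeded all DOX libraries of 3 days.

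Within the light chain sum, *Slc7a11* made up 2.78% to 4.11% in DMSO and 6.47% to 7.81% in DOX. Among the 10 members together, *Slc3a2* held 54.5% to 62.3% of the TPM in DMSO, 56.5% to 61.2% in DOX at 3 days and 64.2% to 66.5% in DOX at 6 days, so that only the last lay above the DMSO range. The summed TPM of the members was 441 ± 57.8 in DMSO and 519 ± 71.1 in DOX at 3 days, with overlap. It went from 457 ± 44.4 in DMSO to 789.9 ± 69.0 (SD, n = 4) in DOX at 6 days, and *Slc3a2* accounted for most of that difference.

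**Figure D3:**
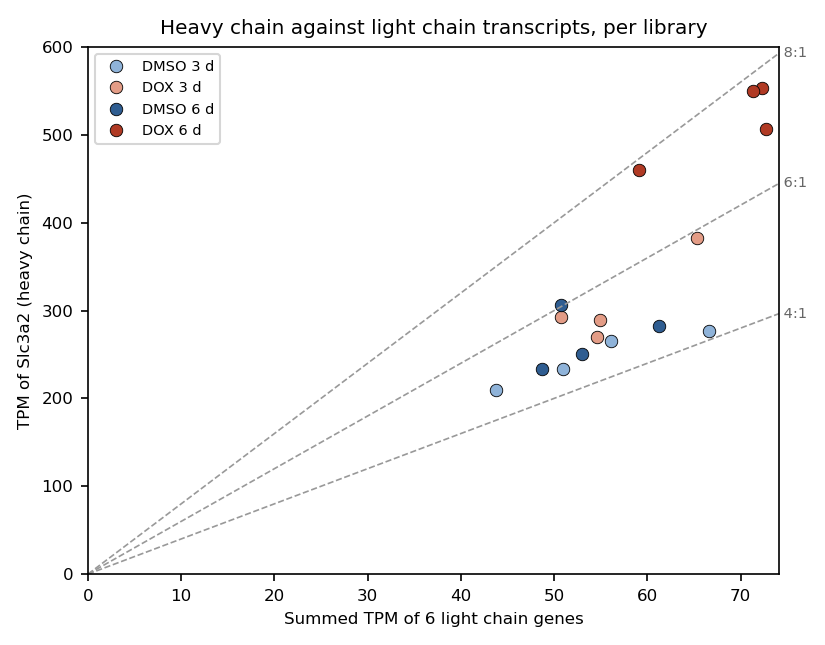
TPM of *Slc3a2* against the summed TPM of 6 light chain genes, 1 point per library, with dashed lines at ratios of 4, 6 and 8. The DOX libraries of 6 days lie between 6.97 and 7.79 on this ratio, above all other libraries.

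The cationic carrier gene *Slc7a1* had 189, 199, 198 and 221 CPM in DMSO and 272, 235, 232 and 237 CPM in DOX at 3 days. Its 6-day values were 190.4, 165, 191 and 190.5 CPM in DMSO and 239.9, 273, 281 and 273 CPM in DOX. The groups did not overlap at either time, but at 3 days the log2 difference of 0.27 (SE 0.0682, adjusted p = 0.591) did not pass the 1.2-fold test in edgeR. At 6 days *Slc7a1* was called at 0.54 (SE 0.0683, adjusted p = 0.000578), or 1.45-fold.

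Both genes of the neutral amino acid exchanger family were higher with DOX at 3 and at 6 days. *Slc1a5* had 23.5, 24.01, 26.96 and 28.3 CPM in DMSO and 41.4, 43.6, 38.8 and 46.9 CPM in DOX at 3 days, then 26.0, 20.8, 23.4 and 24.6 CPM in DMSO and 56.2, 62.5, 70.2 and 59.7 CPM in DOX at 6 days. Among the 9 tested members *Slc1a5* had the lowest adjusted p at 6 days, with log2 fold changes of 0.73 (SE 0.0845, adjusted p = 5.43e-05) and 1.39 (SE 0.0841, adjusted p = 2.62e-10) by edgeR. Its DMSO libraries stayed between 20.8 and 28.3 CPM over both times.

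The length that salmon's estimates imply for *Slc1a5*, read as counts per TPM, varied 1.49-fold between libraries, against a median of 1.14-fold over 10645 genes. On the TPM scale its DOX and DMSO libraries overlapped at 3 days, because replicate 3 of DOX held 16.9 TPM beside 14.6 to 17.3 TPM in DMSO. At 6 days they did not overlap on that scale, with 32.3 to 40.4 TPM in DOX and 10.5 to 18.8 TPM in DMSO.

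*Slc1a4* had 20.3, 25.1, 23.8 and 25.2 CPM in DMSO and 37.7, 39.6, 38.1 and 38.2 CPM in DOX at 3 days. At 6 days the values were 22.3, 21.2, 26.9 and 22.9 CPM in DMSO and 42.0, 51.4, 56.1 and 57.6 CPM in DOX. No DOX library overlapped with a DMSO library, and the spread among DOX libraries was wider at 6 days (SD 7.01 CPM) than at 3 days (SD 0.842 CPM). Its log2 fold changes by edgeR were 0.70 (SE 0.0920, adjusted p = 0.000286) and 1.15 (SE 0.0911, adjusted p = 2.39e-08).

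The 2 sodium-coupled carrier genes *Slc38a1* and *Slc38a2* lie side by side on chromosome 15, 44478 bases apart and on the same strand, and they gave different results. *Slc38a1* had 79.7, 78.7, 80.2 and 86.2 CPM in DMSO and 90.1, 94.4, 87.4 and 98.3 CPM in DOX at 3 days, which did not overlap but differed by only 0.19 on the log2 scale (SE 0.0705, edgeR adjusted p = 1). At 6 days it was called, with 63.8, 70.2, 75.9 and 82.4 CPM in DMSO and 94.9, 111, 112 and 105 CPM in DOX, a log2 fold change of 0.54 (SE 0.0705, adjusted p = 0.000775).

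*Slc38a2*, whose protein product is known to increase when cells are deprived of amino acids, was not called at either time. It had 274, 277, 279.7 and 313 CPM in DMSO and 308, 284, 294 and 286 CPM in DOX at 3 days, and 248, 252, 279 and 294 CPM in DMSO and 267, 300.2, 287 and 293 CPM in DOX at 6 days. The groups overlapped at both times. The log2 difference was 0.04 (approximate 95% interval -0.09 to 0.16) at 3 days, where it was negative on the TPM scale at -0.15, and 0.10 (-0.03 to 0.22) at 6 days. On log2(TPM + 1) centred on each library's median gene it was 0.06 at 3 days. With a length and GC correction it was 0.21 at both times, again not called. Whether the responses of *Slc38a1* and *Slc38a2* differed was not tested.

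The glycine carrier gene *Slc6a9* had 23.8, 25.1, 27.4 and 31.7 CPM in DMSO and 48.6, 47.4, 50.5 and 55.0 CPM in DOX at 3 days. At 6 days it had 28.3, 23.7, 27.1 and 26.5 CPM in DMSO and 62.3, 66.0, 76.5 and 71.4 CPM in DOX. The lowest DOX library exceeded the highest DMSO library by a wide margin at both times. By edgeR the log2 fold changes were 0.90 (SE 0.0855, adjusted p = 2.08e-06) and 1.39 (SE 0.0851, adjusted p = 3.09e-10). Exons of *Slc6a9* overlap those of *Ccdc24*, *B4galt2* and a noncoding gene on the opposite strand, so reads of these genes could be mixed if the estimates did not use strand. The library kit was directional, and whether salmon used the strand is not given in the sources used here.

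**Figure D4:**
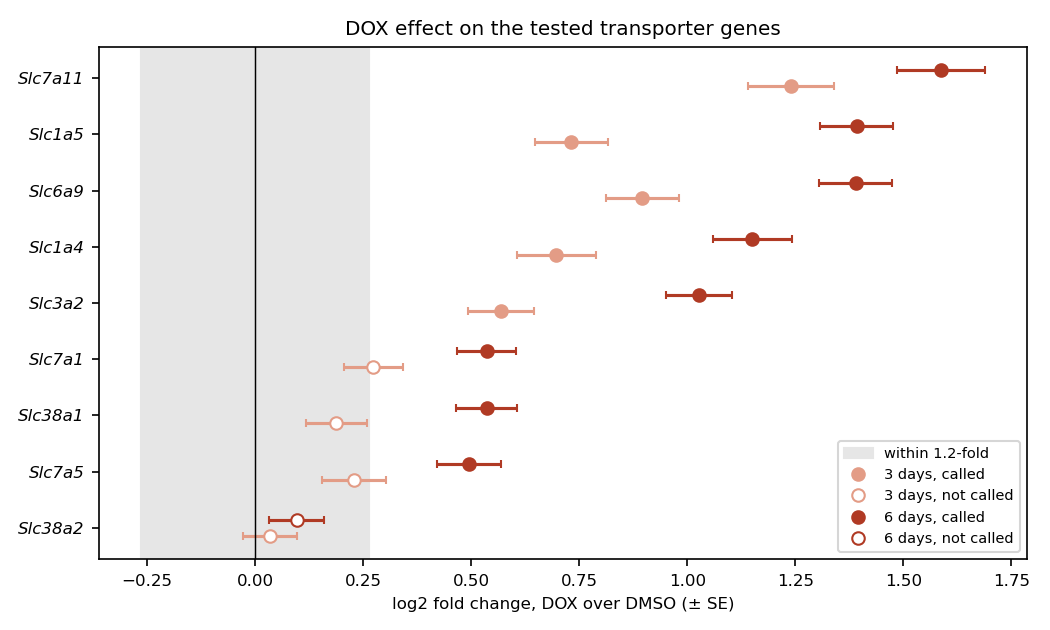
Log2 fold change of DOX over DMSO (x axis, ± SE) for the 9 tested transporter genes at 3 and 6 days, filled where called. The shaded band marks changes within 1.2-fold, and *Slc38a2* lies inside it at both times while *Slc7a11* reaches 1.59 at 6 days.

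The same fold changes were also computed on log2(TPM + 1), where the median of all genes was shifted by -0.149 at 3 days and -0.0547 at 6 days. On that scale limma called 2 of the 9 members at 3 days (*Slc7a11* and *Slc6a9*) and 5 at 6 days (*Slc7a11*, *Slc6a9*, *Slc1a5*, *Slc1a4* and *Slc3a2*). Over all genes it called 701 at 3 days, of which 85 were higher, where edgeR called 1658 with 702 higher. At 6 days the numbers were 1307 with 376 higher and 2856 with 1326 higher. After each library was centred on its median gene, 4 members were called at 3 days and 7 at 6 days. All called members were higher with DOX at both times in each of these settings.

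The next question was whether the DOX effect itself differed between 3 and 6 days. Of the 9 members 5 had a larger effect at 6 days by edgeR's test of the difference, and 17.0% of all tested genes were called in either direction. The difference in log2 fold change was 0.66 for *Slc1a5* (SE 0.119, adjusted p = 0.00143), 0.49 for *Slc6a9* (SE 0.120, adjusted p = 0.00923) and 0.46 for *Slc3a2* (SE 0.108, adjusted p = 0.0074). It was 0.45 for *Slc1a4* (SE 0.129, adjusted p = 0.0205) and 0.35 for *Slc38a1* (SE 0.0997, adjusted p = 0.021).

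The remaining 4 were not called. *Slc7a11* had a difference of 0.35 (edgeR adjusted p = 0.0958), *Slc7a5* 0.27 (adjusted p = 0.0818), *Slc7a1* 0.26 (adjusted p = 0.0634) and *Slc38a2* 0.06 (adjusted p = 0.684). For *Slc7a11* the mean in DOX was 36.6 ± 1.46 CPM at 3 days and 38.5 ± 3.60 CPM (SD, n = 4) at 6 days. Its DMSO libraries ran from 12.9 to 17.1 CPM at 3 days and from 9.96 to 14.8 CPM at 6 days. The mean of *Slc1a5* in DOX went from 42.7 ± 3.46 to 62.1 ± 5.93 CPM, and that of *Slc3a2* from 447 ± 32.4 to 672 ± 32.3 CPM. Whether *Slc7a11* differed from these genes was not tested.

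The calls of *Slc1a5*, *Slc6a9* and *Slc3a2* held whichever library was left out (highest adjusted p 0.0052, 0.0276 and 0.0216 by edgeR). With a length and GC correction the calls of *Slc1a4* (0.26, adjusted p = 0.114) and *Slc38a1* (0.23, adjusted p = 0.0538) were lost. The call of *Slc1a4* was also lost without replicate 4 of DMSO at 3 days, replicate 2 of DMSO at 6 days or replicate 3 or 4 of DOX at 6 days (adjusted p 0.0506 to 0.054). That of *Slc38a1* was also lost without replicate 4 of DMSO or replicate 3 of DOX at 3 days, replicate 2 of DMSO or replicate 3 of DOX at 6 days (adjusted p 0.0507 to 0.0543). Single omissions added calls as well. Without replicate 1 of DMSO at 3 days, *Slc7a1*, *Slc7a5* and *Slc7a11* were called too, 8 members in all. *Slc7a1* was also called without replicate 1 of DOX at 3 or at 6 days, and *Slc7a5* without replicate 3 of DMSO or replicate 1 of DOX at 6 days. On the TPM scale, centred or not, only *Slc1a5* and *Slc3a2* were called for the difference, and with a 1.2-fold threshold on the difference only *Slc1a5* (adjusted p = 0.0309). Without the 7 libraries with more tubule marker transcripts and so with a single DMSO library at 6 days, *Slc1a5*, *Slc6a9* and *Slc3a2* had differences of 0.61, 0.56 and 0.33 that were not called (adjusted p = 0.0671, 0.0762 and 0.162). In that fit *Slc1a4*, *Slc38a1* and *Slc7a11* were called.

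In DMSO alone, 0 of the 9 members were called between 6 and 3 days, as were 0% of all tested genes by edgeR. Their log2 differences ran from -0.27 for *Slc7a11* to 0.13 for *Slc3a2*. No member had an unadjusted p under 0.05 (0 of 9, and 172 of all tested genes), and DESeq2 and limma also called 0 members.

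Within groups the members tended to move together. Replicate 1 of DMSO at 3 days, replicate 2 of DMSO at 6 days and replicate 1 of DOX at 6 days were below their group mean in all 9 tested members. Replicate 4 of DMSO at 3 days and replicate 3 of DOX at 6 days were above it in all 9. Over the 36 pairs of members, Pearson's r of log2 CPM over the 16 libraries, which share the treatment, ran from 0.24 to 0.99 with a median of 0.91. After the group means were removed the median was 0.52, from -0.37 to 0.82. The 3 libraries below their group mean were all among those with more tubule marker transcripts, and neither of the 2 above it was, and the part of these transcripts in the pattern was not tested.

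By the same measure the 5 genes with a pattern most like that of *Slc1a5* were *Slc6a9* (r = 0.989 over 16 libraries), *Stc2* (0.987), *Atf6* (0.986), *Erlin1* (0.986) and *Lcn2* (0.985). *Stc2* encodes a secreted glycoprotein, *Atf6* a sensor of the endoplasmic reticulum stress response and *Lcn2* a secreted carrier of iron-binding molecules made by injured tubules. For *Slc3a2* the closest were *Ogfr* (0.991), *Dhx58* (0.989), *Kat2a* (0.987), *Ssrp1* (0.985) and *Rhbdd1* (0.985). These values describe likeness over libraries that share the same 4 groups.

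Of a wider list of 43 other amino acid transporter genes, 20 passed the filter on low counts, and the other 23 had at most 22 counts in any library. At 3 days 1 was higher, 2 were lower and 17 were not called, and at 6 days 3 were higher, 4 lower and 13 not called. Over all tested genes 12.5% and 21.6% were called at 3 and 6 days. The median log2 fold change of the 20 was -0.31 at 3 days and -0.14 at 6 days.

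Higher with DOX at both times was *Slc38a7*, whose product is known as a glutamine carrier of lysosomes, at 0.64 (edgeR adjusted p = 0.000657) and 0.90 (adjusted p = 7.46e-07) on the log2 scale at 3 and 6 days. *Slc38a9*, a lysosomal arginine sensor, was called at 6 days at 0.45 (adjusted p = 0.0291). *Slc6a17*, known as a neutral amino acid carrier of synaptic vesicles, had -0.19 at 3 days (adjusted p = 1) and was called at 6 days at 0.54 (adjusted p = 0.00115). On the TPM scale the DOX and DMSO libraries of *Slc38a9* and *Slc6a17* overlapped at 6 days. *Slc38a9* had 2.28 to 3.58 TPM in DMSO and 2.82 to 3.98 TPM in DOX. The values of *Slc6a17* were 4.8 to 6.0 TPM in DMSO and 4.95 to 7.9 TPM in DOX. For *Slc6a17* the effect differed between the times (0.73, adjusted p = 0.000326), and for *Slc38a9* a difference was not shown (0.23, adjusted p = 0.213).

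Lower with DOX was *Slc6a6*, the taurine carrier that renal medullary cells use to hold an organic osmolyte, at -0.88 (adjusted p = 2.75e-07) and -0.83 (adjusted p = 2.79e-07) by edgeR. Its level went from 66.9 ± 1.76 to 36.3 ± 2.99 CPM at 3 days and from 60.9 ± 3.78 to 34.1 ± 3.58 CPM (SD, n = 4) at 6 days. *Slc7a4*, a relative of the cationic carriers, was lower at 3 days (-0.55, adjusted p = 0.0137) and not called at 6 days (-0.04), and this difference between times was itself called (0.50, adjusted p = 0.0204).

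At 6 days *Slc43a2*, a carrier of large neutral amino acids, was lower at -0.92 (edgeR adjusted p = 0.0058), *Slc6a19*, the neutral amino acid carrier of the proximal tubule brush border, at -0.62 (adjusted p = 0.00844) and its relative *Slc6a18* at -1.68 (adjusted p = 0.0162). The TPM values of *Slc43a2* and *Slc6a19* in DOX and DMSO overlapped at 6 days. For the scarce *Slc43a2*, replicates 1 and 3 of DOX had 1.038 and 0.915 TPM, within the DMSO range. Replicates 2 and 4 had 0.288 and 0.422 TPM, below it. For *Slc6a19*, replicate 3 of DOX had 4.017 TPM, above all DMSO libraries of that time. Replicates 1, 2 and 4 had 1.747, 1.835 and 1.957 TPM, below all of them. *Slc6a18* was low, with 0.126 to 2.35 TPM. Its level was highest in replicate 3 of DMSO at 3 days, one of the libraries with more tubule marker transcripts. At 6 days so were replicates 2, 3 and 4 of DMSO, and *Slc6a18* had 0.943 to 2.02 TPM in that group. In DOX at 6 days, replicates 1 and 2, also among those libraries, had 0.741 and 0.892 TPM, and replicates 3 and 4 had 0.423 and 0.128 TPM. The part of the tubule marker transcripts in this call was not tested. Over 10 TPM and not called at either time were *Slc7a6* (0.04 and 0.11), *Slc38a6* (-0.06 and -0.08) and *Slc38a10* (-0.35 and 0.17). Exons of *Slc7a4*, *Slc38a9*, *Slc38a10*, *Slc43a2* and *Slc6a6* overlap another gene on the opposite strand, so their values too are uncertain if strand was not used. *Slc16a10*, a carrier of aromatic amino acids named after its values were seen, was called only for the difference between times (0.47, adjusted p = 0.0167).

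The third list held 11 genes that are known to regulate transporter genes, all of which were tested. At 3 days 5 were higher with DOX, 1 was lower and 5 were not called, and at 6 days 4 were higher, 1 lower and 6 not called, where 5.30% and 10.0% of all tested genes were higher. *Atf4* was among the most abundant at 489 ± 53.1 TPM (SD, n = 8) in DMSO. It went from 601 ± 12.5 to 911 ± 74.3 CPM at 3 days and from 693 ± 27.6 to 884 ± 22.8 CPM (SD, n = 4) at 6 days, with log2 fold changes of 0.60 (adjusted p = 8.56e-05) and 0.35 (adjusted p = 0.106) by edgeR. The second was not called although the DOX and DMSO libraries did not overlap. ATF4 is known to be controlled mainly by translation, which these counts do not measure.

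*Trib3*, a target and inhibitor of ATF4, was higher at both times by 1.09 (adjusted p = 5.99e-08) and 1.27 (adjusted p = 1.29e-09) in edgeR. *Ddit3*, which encodes the stress factor CHOP, was higher by 0.90 (adjusted p = 4.53e-07) and 0.60 (adjusted p = 0.000288), and *Atf5*, a relative of ATF4, by 0.42 (adjusted p = 0.0382) and 0.43 (adjusted p = 0.0174). *Cebpb*, which encodes a dimer partner, had 0.53 (adjusted p = 0.128) and 0.81 (adjusted p = 0.00581), so it was called at 6 days. *Myc*, a known activator of *Slc1a5* and *Slc7a5*, was called at 3 days at 0.43 (adjusted p = 0.00369) and had 0.30 (adjusted p = 0.254) at 6 days. On the TPM scale the DOX and DMSO libraries of *Trib3* and *Ddit3* did not overlap at either time. Those of *Atf5* overlapped at both times, those of *Cebpb* at 6 days and those of *Myc* at 3 days.

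*Eif2ak3*, which encodes the endoplasmic reticulum kinase PERK, was lower at both times, by -0.51 (adjusted p = 0.0173) and -0.79 (adjusted p = 2.62e-05) in edgeR. Its TPM values in DOX and DMSO overlapped at 3 days but not at 6 days. *Cebpg* had 0.35 (adjusted p = 0.0767) and 0.33 (adjusted p = 0.105), and *Eif2ak4*, the kinase that senses uncharged transfer RNA, 0.07 (adjusted p = 1) and 0.35 (adjusted p = 0.128). *Eif2ak1*, the kinase that relays mitochondrial stress, had -0.12 and 0.08, and *Nfe2l2*, a known activator of *Slc7a11* under oxidative stress, had -0.03 and -0.12 (adjusted p = 1 for all 4 values). Exons of *Atf5*, *Ddit3*, *Cebpb*, *Cebpg*, *Eif2ak1* and *Eif2ak3* overlap other annotated genes. For *Ddit3* these include a second entry of the same symbol on the same strand. Only the entry with the higher summed TPM was used, and how reads were divided between the entries was not tested.

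**Figure D5:**
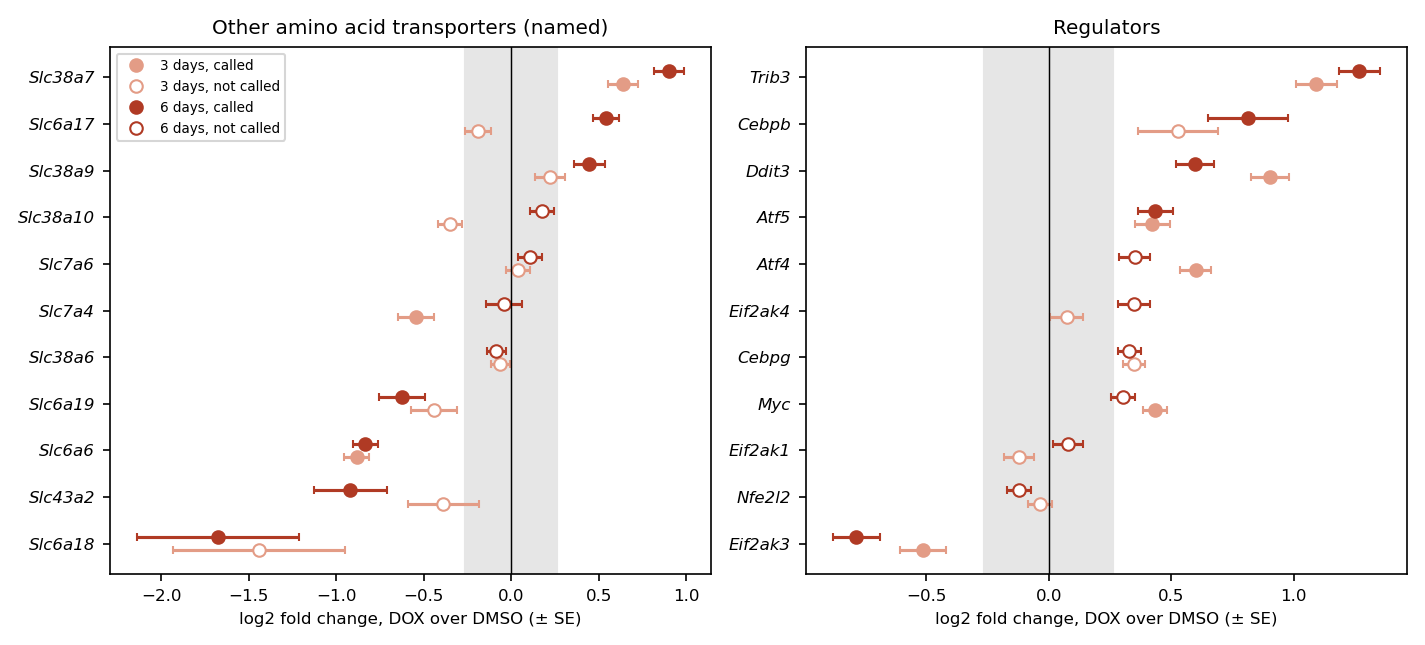
Log2 fold change of DOX over DMSO (x axis, ± SE) at 3 and 6 days for 11 other amino acid transporter genes and 11 regulators, filled where called, with changes within 1.2-fold shaded. *Slc38a7* and *Trib3* lie farthest to the right at 6 days, at 0.90 and 1.27, and *Slc6a18* and *Eif2ak3* farthest to the left.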

How the data were processed

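Paired reads were aligned to GRCm38.p6 (STAR) and assigned to transcripts (salmon) by the authors, who deposited an estimated count per gene and library, which is not normalized, and TPM values, which the authors scaled by transcript length. The library kit was directional, and strand use by salmon is not given in the sources used here. All 16 libraries were used, grouped by their labels. Estimated counts were rounded, and the 13234 genes that reached 1 CPM in 4 or more libraries were fitted with edgeR 4.0.16 in R 4.3.3 (TMM, robust quasi-likelihood, 1 mean per group). DOX was compared with DMSO by glmTreat with a 1.2-fold threshold, and the difference between times by glmQLFTest. Tests were two-sided with Benjamini-Hochberg adjustment over all tested genes. The SE is the size of the log2 fold change over the square root of F, and intervals of 95% use a normal approximation. CPM values are TMM-scaled. At these depths 3 counts equal 0.125 to 0.177 CPM, for counting error only. Alternatives used limma 3.58.1, DESeq2 1.42.0, other filters and scalings, length and GC splines, a replicate block, and each library left out. Fits were tested on simulated data.

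The members and gene lists were chosen with earlier results of these data known. All 10 members were named. Other transporters were named where called at either time or over 10 TPM in DMSO, and all 11 regulators were named, with the 5 genes of highest r for the member of lowest adjusted p at 6 days and for the most abundant member. Positions and overlaps come from GENCODE M21, promoter sequences from RefSeq.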

Additional observations from a re-analysis of the deposited data

Results flagged for a closer look

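By edgeR's test without a fold threshold, the DOX effect differed between 3 and 6 days for 9 genes named by the stated rules. The genes named by those rules and tested were 9 members, 11 other transporters and 11 regulators. Of all 13234 tested genes 17.0% were called, and 7.44% were called with a positive difference. *Slc16a10*, named after its values were seen, was also called, as given above. The log2 difference, 6 days minus 3 days, was 0.66 for *Slc1a5*, 0.49 for *Slc6a9*, 0.46 for *Slc3a2*, 0.45 for *Slc1a4* and 0.35 for *Slc38a1* (adjusted p = 0.00143, 0.00923, 0.0074, 0.0205 and 0.021). Among other transporters it was 0.73 for *Slc6a17*, 0.52 for *Slc38a10* and 0.50 for *Slc7a4* (adjusted p = 0.000326, 0.00181 and 0.0204). For the regulator *Eif2ak4* it was 0.27 (adjusted p = 0.0473). *Slc38a10* had -0.35 at 3 days and 0.17 at 6 days, and was called at neither time.

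In 80 groups of 4 values (10 members, 4 groups, CPM and TPM), 9 held a library far from the other 3 by Dixon's criterion. Chance gives about 1 in 20 groups. The 80 groups were not independent, since CPM and TPM come from the same libraries and members tended to move together. The number 9 can therefore not be judged against that rate. *Slc7a1* in replicate 1 of DOX at 3 days stood high at 272 CPM and 43.6 TPM, and in replicate 2 of DMSO at 6 days low at 165 CPM. *Slc7a5* in replicate 1 of DOX at 6 days was low at 41.3 TPM. *Slc38a2* was high in replicate 4 of DMSO at 3 days, at 313 CPM, and in replicate 1 of DOX at 3 days, at 74.6 TPM. The scarce *Slc7a3* had 0.747 CPM in replicate 2 and 0.225 TPM in replicate 3 of DOX at 3 days, and 0.536 TPM in replicate 4 of DMSO at 6 days.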

How the results depend on the processing

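Leaving out each library in turn gave 5 called members at 3 days, 8 at 6 days and 3 to 8 for the difference between times, and 0 between the DMSO groups. Over all genes it gave 1366 to 2295 calls at 3 days and 2545 to 3064 at 6 days. For the difference, 580 to 1836 genes were called with a positive value, against 984 with all libraries. With the replicate block 5, 8 and 5 members were called, and 1570 and 2767 of all genes. Same-numbered libraries were not alike, with deviations from the group mean correlated, on average, at -0.0955 (3 days) and -0.121 (6 days), so the numbers were not read as pairs, and the block alone changed no call of a member. Added to the length and GC correction it took the members called for the difference from 3 to 5. Without the fold threshold 8 members and 5982 genes were called at 3 days and 6702 genes at 6 days. With a 1.2-fold threshold on the difference between times 1 member was called. On log2(TPM + 1) limma called 2, 5 and 2 members (3 days, 6 days, difference) and 701 and 1307 genes, and on log2(TPM + 0.1) 2, 5 and 2 members and 909 and 1527 genes. Centring on the median gene, added after the data were seen, gave 574 and 1393 genes and 2 members for the difference. Leaving out the 7 libraries with more tubule markers, also added and with 1 DMSO library left at 6 days, gave 1312 genes at 6 days and 3 members for the difference. The difference was called for 8 members without a count filter and for 3 with the length and GC correction, and DESeq2 called 1019 genes at 3 days. Only *Slc38a2* changed sign, at 3 days to -0.15 on both TPM scales and -0.00912 without the 7 libraries. For the difference it changed to -0.00245 with the length and GC correction and -0.0044 with the replicate block added. On log2(TPM + 1) at 3 days the median of all genes was -0.149, and *Slc38a2* had 0.0570 after centring. The cause of the sign changes was not tested.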
